A study of Mus musculus with 2 samples.

Results

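The let-7 and miR-98 family was examined on 2 single-colour Agilent miRNA arrays through its 9 mature 5p members, mmu-let-7a-5p, mmu-let-7b-5p, mmu-let-7c-5p, mmu-let-7d-5p, mmu-let-7e-5p, mmu-let-7f-5p, mmu-let-7g-5p, mmu-let-7i-5p and mmu-miR-98-5p, called let-7a to miR-98 below. The members were taken by name from the 1080 miRNA names on the array, and the scanner software called all 9 detected on both arrays, among 292 such names. The cells were myeloid-derived suppressor cells (MDSCs), a T cell-inhibiting type of immature myeloid cell, grown out of C57BL/6 mouse bone marrow. Both cultures lasted 4 days, and both contained 5% serum and GM-CSF at 40 ng/ml, which drives granulocyte and macrophage growth. The GM-CSF plus IL-6 culture also received 40 ng/ml of the inflammatory cytokine IL-6, and the GM-CSF only culture did not. Each condition had 1 array, so no test between the cultures was possible and no p-value is given. Neither the number of mice behind a culture nor a sort of the cells is named in the labels.

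let-7 miRNAs are among the most conserved animal miRNAs. They share a seed, the stretch near the 5′ end that pairs with target mRNAs, and they repress growth-promoting genes such as Ras, Myc and Hmga2. The RNA-binding proteins Lin28a and Lin28b block the maturation of let-7 precursors and are themselves let-7 targets. In the mouse, this axis separates fetal from adult blood formation, and let-7 levels are low while Lin28b is present. In human cells, the mRNA of IL-6 has been reported as a let-7 target. The comparison describes how the levels of these miRNAs differed between a culture with added IL-6 and one without it.

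The 9 mature sequences are shown because the members differ by so few bases that a probe for one may also capture another. They are RefSeq sequences of build GRCm38.p6, matched by name for all 9, and the capitals mark the seed, bases 2 to 8.
mmu-let-7a-5p: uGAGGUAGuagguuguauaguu
mmu-let-7b-5p: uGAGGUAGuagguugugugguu
mmu-let-7c-5p: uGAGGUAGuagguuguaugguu
mmu-let-7d-5p: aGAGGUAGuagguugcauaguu
mmu-let-7e-5p: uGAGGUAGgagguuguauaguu
mmu-let-7f-5p: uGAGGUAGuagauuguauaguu
mmu-let-7g-5p: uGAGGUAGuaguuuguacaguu
mmu-let-7i-5p: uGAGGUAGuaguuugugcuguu
mmu-miR-98-5p: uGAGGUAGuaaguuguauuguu

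All 9 members were 22 bases long and carried the same seed. Counted from 1 at the 5′ end, with the base of let-7a first, the differences from let-7a were A17G and A19G in let-7b, A19G in let-7c, U1A and U16C in let-7d, U9G in let-7e and G12A in let-7f. They were G12U and U18C in let-7g, G12U, A17G, U18C and A19U in let-7i, and G11A and A19U in miR-98. Between any 2 members 1 to 6 bases differed. Of the 36 pairs, 4 differed at 1 base (let-7a with let-7c, let-7e and let-7f, and let-7b with let-7c) and 10 at 2 bases. Probe sequences were not used here, so shared signal between members was not measured directly.

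In the RefSeq tables the members come from several loci. On the minus strand of chromosome 13 lie the hairpins of let-7d (mature sequence at chr13:48536078-48536099), let-7f-1 (chr13:48537889-48537910) and let-7a-1 (chr13:48538239-48538260). The let-7c-2 (chr15:85706616-85706637) and let-7b (chr15:85707325-85707346) hairpins lie within the span of the non-coding gene Lncppara. A further pair, let-7f-2 (chrX:151912353-151912374) and miR-98 (chrX:151913229-151913250), lies within the span of Huwe1, a ubiquitin ligase gene. The let-7g hairpin (chr9:106178846-106178867) lies within that of Wdr82, and let-7e (chr17:17830366-17830387) within that of Spaca6. No other gene of the table spans let-7i (chr10:122985698-122985719, minus strand) or the second let-7c hairpin, let-7c-1 (chr16:77599672-77599693). The table holds spans only, so intron and exon were not assigned, and an array name that several hairpins can supply, such as let-7f-5p, does not tell them apart.

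The levels below are summed signals in scanner units, the sum of the background-subtracted total signals of a member's probes, with the standard error (SE) over replicate spots. Each member had 2 probes of 20 spots on each array. The SE covers spot error only and says nothing of variation between cultures. Probes differ in brightness, so a signal or a share of it is not a number of molecules, and each member is compared with itself across the cultures.

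The chromosome 13 group, named for a hairpin of each member, held 3 of the brighter members. Their signals cannot be assigned to those hairpins alone, since let-7f-2 and let-7a-2 lie elsewhere. The signal of let-7a was 720.1 ± 4.67 with IL-6 and 772 ± 4.40 without it. For let-7f, which differs from let-7a at 1 base, it was 668 ± 3.88 and 722 ± 2.74. That of let-7d, the sole member starting with A, was 456 ± 3.50 and 483 ± 4.80. All 3 were slightly dimmer in the culture with IL-6.

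The chromosome 15 group, named in the same way, was dimmer, and let-7c can also come from the let-7c-1 hairpin. The signal of let-7b was 271 ± 2.01 with IL-6 and 279 ± 2.33 without it, and that of let-7c was 216 ± 2.05 and 229 ± 2.49. Of the members with a hairpin of their own, let-7i was the brightest name of the family at 953 ± 9.0 and 1033 ± 7.34. The signal of let-7g was 647 ± 4.40 and 713 ± 6.21. Again each of these was dimmer with IL-6.

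Both remaining members were much dimmer. The signal of miR-98, which shares a locus with let-7f-2, was 42.3 ± 0.64 with IL-6 and 46.8 ± 0.52 without it. That of let-7e was 8.45 ± 0.25 and 9.46 ± 0.41. For let-7e only 1 of 40 spots on each array was well above background, against 40 of 40 for each of the other 8 members on both arrays. One of its probes, with 2.18 and 2.83, stayed below the scanner software's limit of 3 times the probe's error. The detection of let-7e rested on its other probe, at 6.27 and 6.64, so its values lie near background and no direction is drawn from them. From odd-numbered spots alone its relative log2 ratio, defined below, was 0.0014, and from even-numbered spots -0.20.

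**Figure D1:**
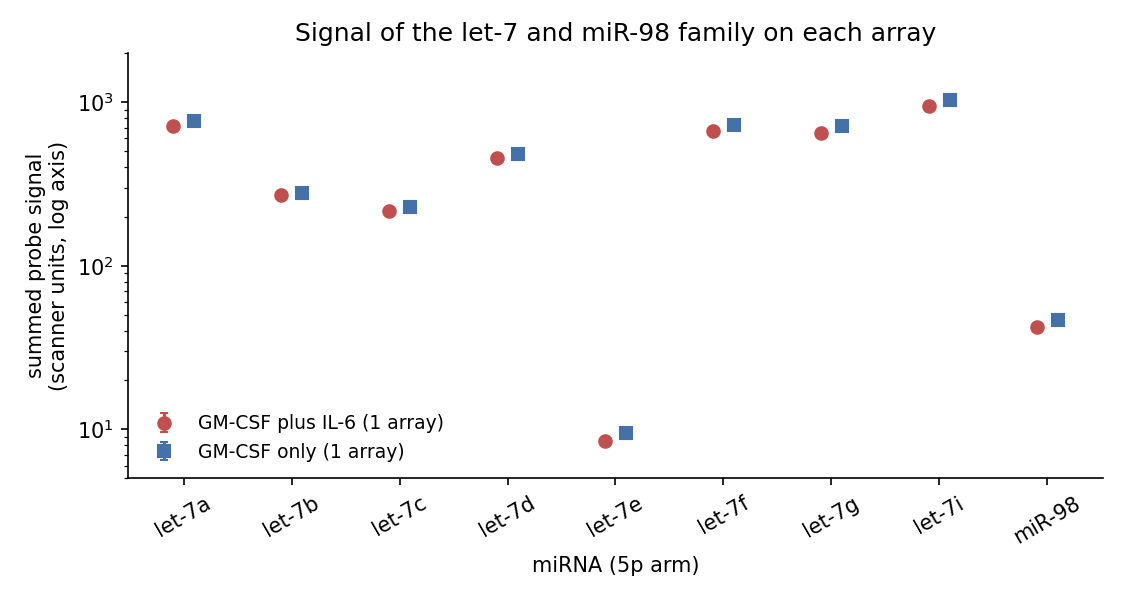
Summed probe signal (log axis, scanner units) of the 9 members on the array with IL-6 (circles) and the one without (squares), with spot standard errors that are mostly smaller than the symbols. The members run from let-7e at 8.45 and 9.46 to let-7i at 953 and 1033, and the order of the 9 is the same on both arrays.

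Before any scaling, the 8 members other than let-7e were dimmer with IL-6, by 2.88% (let-7b) to 9.61% (miR-98), and the summed family signal was 3982 against 4288, or 7.13% dimmer. Part of this was shared by other miRNAs: with no scaling, the typical (median) miRNA of the 292 had a log2 ratio of -0.06. Each array was therefore divided by its 75th percentile over those miRNAs (160.1 with IL-6 and 182 without it), which moved that median to 0.12, and from here on it was subtracted: a relative log2 ratio is the scaled log2 signal with IL-6 minus that without it, less the median. On this scale the summed family signal stood at -0.042 ± 0.0062 (spot SE), which is 2.90% lower with IL-6.

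On the relative scale the members lay close to the typical miRNA. The value was -0.036 ± 0.012 for let-7a, -0.049 ± 0.010 for let-7f and -0.019 ± 0.018 for let-7d. It was 0.022 ± 0.016 for let-7b and -0.018 ± 0.021 for let-7c. The values were -0.077 ± 0.016 for let-7g, -0.052 ± 0.017 for let-7i, -0.082 ± 0.027 for miR-98 and -0.10 ± 0.08 for let-7e. Thus 8 of 9 members, counting the near-background let-7e, had values below the median of all miRNAs, where 50% of the 292 lie by construction, and let-7b alone was above it. The centre itself moves by more than some of these values: against the median of the 146 brighter miRNAs, let-7c (0.0028) and let-7d (0.0018) were also above 0.

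The family median was -0.049, beside 0 for all 292 miRNAs with quartiles of -0.09 and 0.16. For the brighter 146 of them the median was -0.021 and the quartiles were -0.09 and 0.10. Among the 35 other mouse names with a level within 1 log2 unit of the median member, the median was -0.025, the quartiles were -0.11 and 0.07, and 22 lay below 0. Of the 9 members, 8 fell within the middle 50% of all 292, and let-7e lay just under it. The 9 values spread with a standard deviation of 0.038, against 0.26 for the 292. The low spread is a description, since the members share bases and possibly signal. The 292 also include many names dimmer than the median member, and no standard deviation is given for names of similar level.

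No member reached a 1.5-fold difference in either direction. Among the 292 miRNAs, 3.42% (10 names) exceeded 1.5-fold on the higher side with IL-6 and 0% on the lower side. At 2-fold the shares were 1.03% and 0%. At 1.2-fold, 15.8% of the 292 were higher and 2.05% lower, and again 0 members were. With spot error alone, the 95% intervals of the relative log2 ratios of all 9 members lay between -0.25 and 0.05, both ends inside 1.5-fold. These intervals leave out culture variation, so they bound what the 2 arrays measured and not an effect of IL-6. In bulk RNA, fewer cells of a type and less of a miRNA per cell cannot be told apart.

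**Figure D2:**
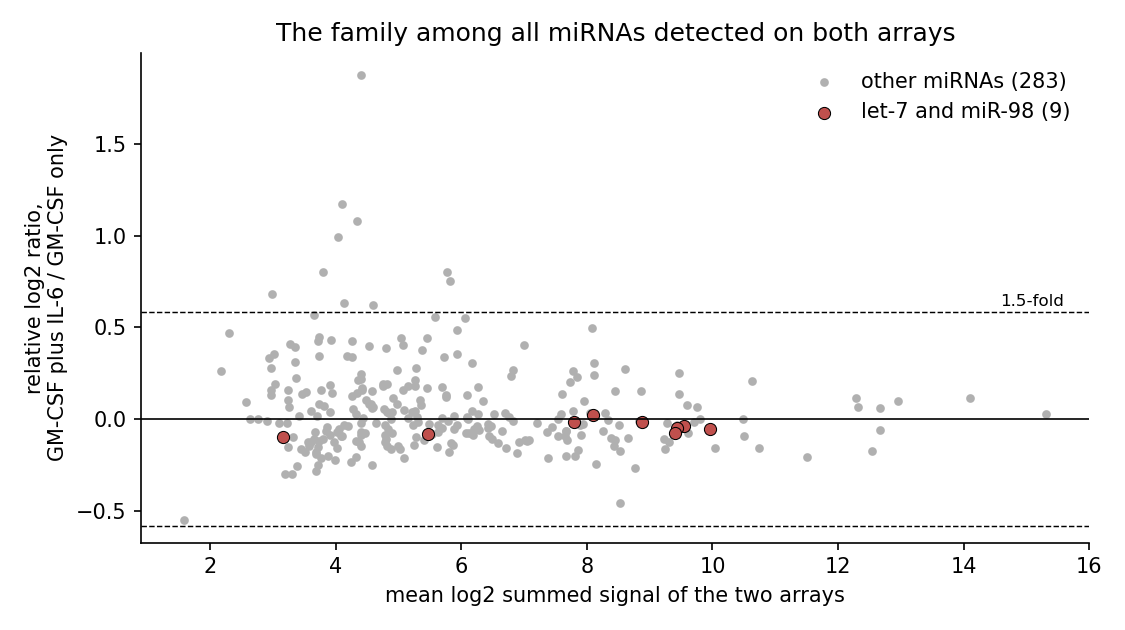
Relative log2 ratio (with IL-6 over without) against the mean log2 summed signal of the arrays for the 292 miRNAs detected on both, with the 9 family members in red and dashed lines at 1.5-fold. The members lie between -0.10 and 0.02, while the other miRNAs reach from -0.55 to 1.87.

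Differences among the members were small but in places larger than spot error. The spot intervals left out 0 for 5 members (let-7a, let-7f, let-7g, let-7i and miR-98), all 5 on the lower side, and held 0 for the other 4. Among all 292 miRNAs the interval left out 0 on the lower side for 30.5% and on the higher side for 31.5%. Centred on the brighter miRNAs, it left out 0 for let-7f, let-7g and miR-98 on the lower side and for let-7b on the higher side, and held 0 for let-7a and let-7i. Among the 36 pairs of members, 8 had a 95% spot interval of the difference that left out 0, with no correction for the number of pairs. All 8 involved let-7b or let-7g. The widest gap of these was between let-7b and miR-98, at 0.10 (95% spot interval 0.042 to 0.17), followed by let-7b and let-7g at 0.099 (0.055 to 0.14). Some of these orders depend on the processing. Under quantile normalization let-7b (-0.078) lay below let-7a (-0.055), let-7f (-0.061), let-7g (-0.029) and let-7i (0.031), and let-7a lay below let-7g. The order held for let-7b with miR-98 (-0.15) and for let-7g with let-7c and let-7d. The pair let-7b and let-7c, which differ at A17G alone and have neighbouring hairpins, differed by 0.040 (-0.012 to 0.092). For let-7a and let-7f the difference was 0.013 (-0.019 to 0.044), and for let-7g and let-7i, which differ at 2 bases, it was -0.025 (-0.071 to 0.020). Within the chromosome 13 group the values ran from -0.049 to -0.019.

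Both probes of a member gave the same sign in 7 of 9 members, counting let-7e, whose dimmer probe was undetected on both arrays. For let-7b, the brighter probe stood at 0.014 ± 0.020 and the dimmer one at 0.040 ± 0.025. For let-7g the values were -0.073 ± 0.019 and -0.098 ± 0.024, both below those of let-7b. The probes of let-7d disagreed in sign, at -0.027 ± 0.021 and 0.015 ± 0.027. Those of let-7f did too, at -0.057 ± 0.011 and 0.0087 ± 0.025, and this was the single member for which the 95% spot interval of the difference between probes left out 0. Of the 18 probes, 14 were below 0, both let-7e probes among them, and 4 above. Matching counts for the probes of all 292 miRNAs are not given here, so these counts are a description only. Leaving out let-7e, the coefficient of variation between the spots of a probe was 1.75% to 9.51%, and 0 to 5 of the 40 spots of any member carried outlier flags.

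**Figure D3:**
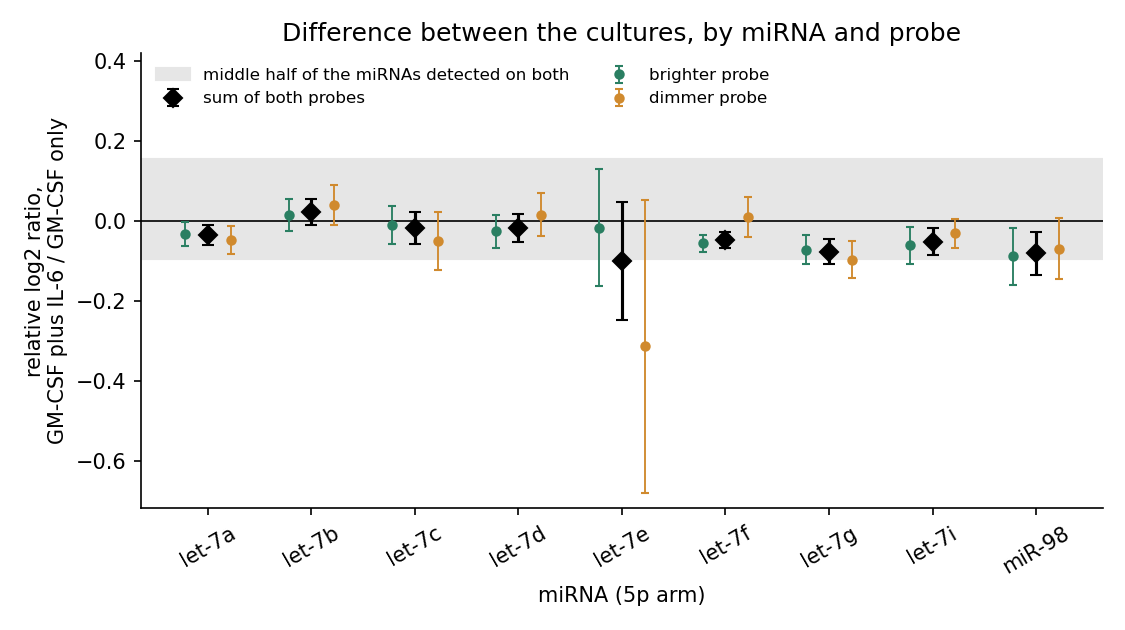
Relative log2 ratio of each member from the sum of both probes (black diamonds) and from the brighter (green) and dimmer (orange) probe alone, with 95% intervals from spot error, over the middle 50% of all 292 miRNAs (grey, -0.09 to 0.16). let-7b is the one member above 0, and let-7e has the widest interval.

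The make-up of the family signal was nearly the same in both cultures. let-7i held 23.9% of it with IL-6 and 24.1% without, let-7f 16.8% and 16.8%, and let-7g 16.2% and 16.6%. let-7a held 18.1% with IL-6, a change of 0.083 ± 0.147 points. These 4 members together held 75.04% and 75.6%. let-7d followed with 11.5% and 11.3%, let-7b with 6.81% and 6.51%, and let-7c with 5.42% and 5.33%. miR-98 held 1.06% and 1.09%, and let-7e 0.21% and 0.22%.

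The change of share with IL-6 had a 95% spot interval that left out 0 for 2 of 9 members. The share of let-7b was 0.298 ± 0.075 percentage points higher with IL-6, and that of let-7g changed by -0.395 ± 0.165 points. For the other 7 the change was at most 0.19 points in size (let-7d, 0.19 ± 0.13). Summed over the members with a higher share with IL-6, the changes came to 0.66 points. Such a sum cannot fall below 0 and includes spot error, so it does not show that signal moved between members. The share of the family in the summed signal of all detected names was 2.92% with IL-6 and 3.06% without it. These sums cover 308 and 301 detected names, so this share also depends on the signal of the other names.

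**Figure D4:**
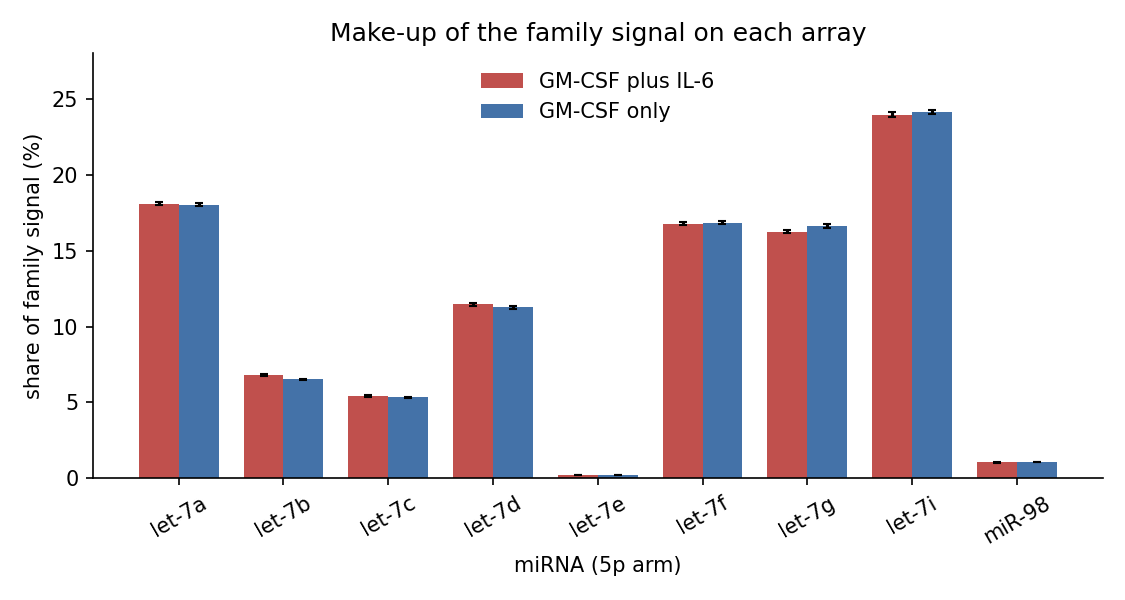
Share of the summed signal of the 9 members (percent) held by each member on the array with IL-6 (red) and the one without (blue), with spot standard errors. The paired bars are close for each member, and the largest difference is that of let-7g, 16.2% with IL-6 and 16.6% without.

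A miRNA hairpin can release a second product from its other arm, and the array carried 11 such 3p names of this family. Both arrays detected 3 of these, and neither detected the other 8. The detected arms are shown with bases 2 to 8 in capitals, since they do not share the seed of the 5p members.
let-7b-3p: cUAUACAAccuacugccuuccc
let-7d-3p: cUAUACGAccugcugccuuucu
let-7f-1-3p: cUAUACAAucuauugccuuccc

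In the IL-6 culture let-7b-3p gave 16.0 ± 0.53, and in the other 17.9 ± 0.54 (relative log2 ratio -0.09 ± 0.06). For let-7d-3p the signal was 12.8 ± 0.43 and 13.2 ± 0.51 (0.01 ± 0.07). For let-7f-1-3p it was 13.5 ± 0.46 and 16.2 ± 0.55 (-0.20 ± 0.07), with 4 and 18 of 40 spots well above background. The let-7f-1-3p value lay below that of let-7f-5p (-0.049), and let-7f-5p can also come from the let-7f-2 hairpin, whose 3p arm was undetected. The other undetected arms included let-7g-3p (4.58 and 4.22) and miR-98-3p (0.76 and 0.52), although their 5p arms were detected.

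Of miRNAs outside the family in RefSeq, miR-1961 and let-7k carry the same seed. let-7k is not analysed here. The short miR-1961 was undetected on both arrays, with signals of -1.60 and -2.20.
miR-1961: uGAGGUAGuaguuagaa

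Several let-7 hairpins lie beside hairpins of the miR-99/100 and miR-125 families. In RefSeq order these are Mir99b, Mirlet7e and Mir125a on chromosome 17, Mir99a, Mirlet7c-1 and Mir125b-2 on chromosome 16, and Mir100, Mirlet7a-2 and Mir125b-1 on chromosome 9. Of 11 neighbour names, 2 were detected on both, 8 on neither, and miR-125b-2-3p with GM-CSF only (8.11 and 9.33). Like let-7e, its neighbours miR-99b-5p (0.38 and 0.87) and miR-125a-5p (2.42 and 4.09) were at or near background. The other arms from those hairpins were detected, miR-99b-3p at 11.8 and 11.2 (0.15 ± 0.08) and miR-125a-3p at 35.2 and 40.6 (-0.14 ± 0.04). Neither miR-100-5p nor miR-99a-5p was detected.

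A set of 8 miRNAs has been reported to target Lin28, the inhibitor of let-7 maturation. Of these, 5 were detected on both arrays, all 5 of them miR-30 members, and miR-9-5p, miR-125a-5p and miR-125b-5p were detected on neither. All 5 lay below 0 on the relative scale, where 50% of the 292 lie, with a median of -0.10 and 0 past 1.5-fold. Centred on the brighter miRNAs 4 of 5 did, and miR-30d-5p was at 0.018. The signal of miR-30b-5p was 89.6 with IL-6 and 102 without it (-0.13 ± 0.03), and that of miR-30d-5p was 67.2 and 70.4 (-0.0023 ± 0.028). The mRNAs of Lin28a and Lin28b were not measured on these arrays.

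At a similar level, the names nearest in relative log2 ratio to the family median were miR-92a-3p (670 and 717, -0.034), miR-27a-3p (352 and 377, -0.033) and miR-212-3p (230.4 and 246, -0.033). They were the nearest 3 of the 35 mouse names within 1 log2 unit of the median member's level. With 2 arrays, this likeness rests on a single ratio.

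All 3 names listed as myeloid, both arms of miR-142 together with miR-223-3p, were detected on both arrays. Their summed signal was 7899 with IL-6 and 8535 without it. Whether these names are confined to myeloid cells was not examined, so their signal does not identify the cell type. The names listed for other cells were dimmer than each of these. All 5 stromal names were undetected on both arrays, at -2.13 to 0.64 with IL-6 and -1.42 to 0.34 without it. The lymphoid miR-150-5p had 54.2 and 62.6, the erythroid miR-451 8.10 and 10.4, and the endothelial and megakaryocyte miR-126-3p 11.0 and 12.8. The other erythroid name on the array, miR-144-3p, was undetected on both arrays (-1.23 and -1.31). Of the epithelial names, miR-200c-3p had 12.4 and 14.99 (17 and 19 of 40 spots), and miR-141-3p had 8.51 and 7.80 (5 and 4 of 40 spots). Among the myeloid names the relative log2 ratio was 0.0020 for miR-142-3p, 0.034 for miR-142-5p and -0.061 for miR-223-3p. Those of the other detected markers were -0.14 (miR-150-5p), -0.15 (miR-126-3p), -0.21 (miR-200c-3p), 0.19 (miR-141-3p) and -0.30 (miR-451, with 1 and 6 of 40 spots well above background). The part of other cell types in the family's values was not tested.

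**Figure D5:**
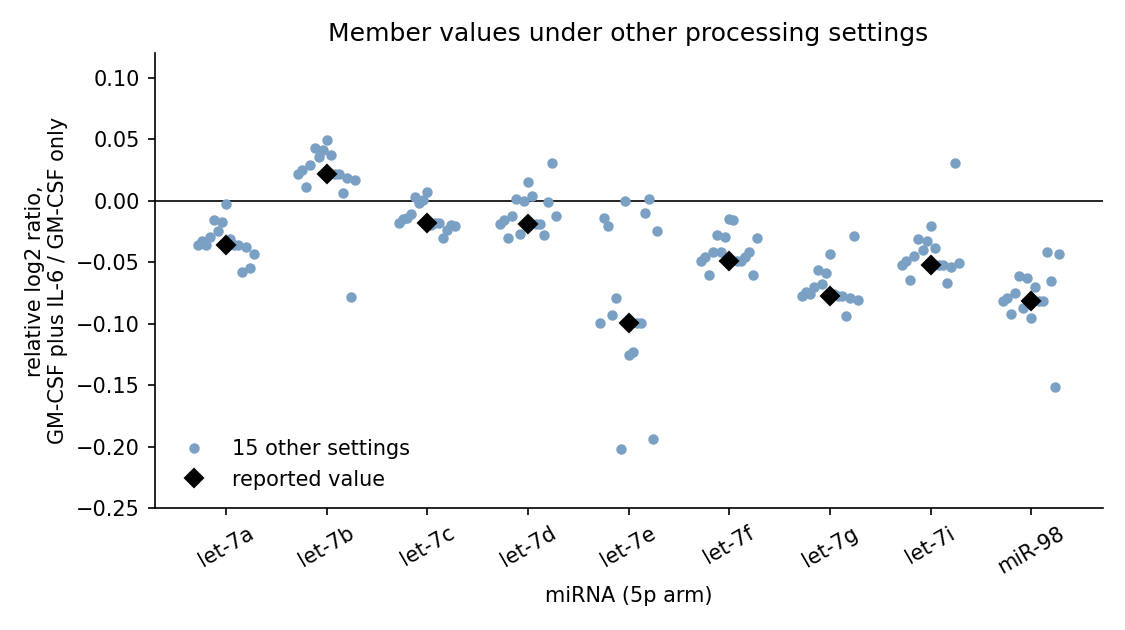
Relative log2 ratio of each member as reported (black diamonds) and under 15 other processing settings (blue points). Some settings repeat the reported values or, let-7e aside, move the members by a common amount. let-7a, let-7f, let-7g and miR-98 lie below 0 in all 15, let-7b above 0 in 14 of 15, and let-7e ranges from -0.20 to 0.0014.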

How the data were processed

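RNA from the 2 cultures was measured on 1 array each, both on 1 slide and in 1 scan. The labels name a cRNA amplification kit for 0.2 ug of RNA, but do not say whether it served these arrays. The authors' scanner files hold intensities from Agilent Feature Extraction 10.7.1.1, per the file headers, that were background-subtracted and spatially detrended, with no scaling between arrays. Values in the table that the authors deposited are log2, each array with an unstated constant. The level was the sum of deposited total probe signals. The deposited gene total was not used, because for let-7e (462 and 489.8) it exceeded the sum of its detected probes by the gene total of the preceding detected name, let-7d-5p (456 and 483). Ratios were scaled by the 75th percentile and centred on the median of the 292 miRNAs. Detection was the scanner software's flag, spot SEs came from spots without outlier flags, and 0 spots were saturated. The rule named all 9 members, the other arms, names of the same seed, cluster neighbours, 8 Lin28-targeting names, the 3 most alike and markers of cell types. Members and lists were chosen with earlier results of these data known. miRNA names follow the array design. Alternatives covered the level measure (single probe, gene totals, spot means), background (normexp of limma 3.58.1, R 4.3.3, offset 50), scaling, centring, quantile and loess normalization, the authors' table, and leaving out probes or members. The software was Python 3.11.15, numpy 2.4.6, pandas 2.3.3, statsmodels 0.14.6 and matplotlib 3.10.9. The code was run on simulated data with spot noise only and changes far larger than those of the members. That run does not show that differences as small as theirs are recovered. With 1 array per culture, variation between cultures could not be estimated. An effect of IL-6 cannot be told apart from other differences between the 2 cultures or arrays.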

Additional observations from a re-analysis of the deposited data

How the results depend on the processing

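The family median stayed below 0 under all settings tried, between -0.055 and -0.015 under 15 other settings, and so did the summed signal, between -0.053 and -0.021 under the 13 run for it (sums and shares were not run under quantile and loess normalization). The family median was -0.015 under loess (span 0.7), -0.017 with the gene totals, and -0.028 when centred on the brighter names. The summed signal was -0.021 with the gene totals, -0.029 from the mean log2 spot signal (floor 1), and -0.022 when centred on the brighter names. With the gene totals, the 8 members other than let-7e each moved up by 0.019, a common shift of the centre, and the let-7e total, which includes that of let-7d, took 10.4% and 10.3% of the family signal. Centring on the brighter names or on mouse names also moves all members equally, by construction. The cause of the other shifts was not tested. With each of the 18 probes left out the median ran from -0.052 to -0.036 and the sum from -0.045 to -0.038. With each member left out they ran from -0.050 to -0.042 and from -0.047 to -0.036. No setting took a member past 1.5-fold. 4 members (let-7a, let-7f, let-7g and miR-98) were below 0 in all 15 settings. let-7b was above 0 in 14 and at -0.078 under quantile normalization, where let-7d and let-7i were at 0.031. The share of let-7b was higher and that of let-7g lower with IL-6 in the 8 settings recomputed for shares, apart from left-out probes. Quantile and loess normalization can also change a share but were not run for it. Under quantile normalization let-7b (-0.078) lay below let-7g (-0.029), the reverse of their reported order. 3 of the 15 settings are uniform scalings, which repeat the reported values by construction. The gene totals, the authors' table and the centrings on mouse or brighter names move the 8 members other than let-7e by a common amount. The 15 settings are therefore not 15 separate analyses. No paired analysis was possible because each group has 1 array and shares only a single replicate number. Signals near background limit let-7e and the 3p arms.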
